A study of Rattus norvegicus with 12 samples.

Results

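The genes described here are the transcribed genes of the rat major histocompatibility complex (MHC, called RT1 in the rat), measured by RNA sequencing in cultured oligodendrocyte precursor cells. They were chosen by position and abundance alone, and the abundance included the cytokine-treated libraries. A gene was taken when its lowest exon start and highest exon end both lay from 2.6 to 4.65 Mb on chromosome 20 of the assembly mRatBN7.2 and its mean count over the 12 libraries was at least 5. These limits held 134 genes, of which 78 reached the mean count, out of 13348 genes with that mean count in the whole series and 30562 genes listed. Positions below are lowest starts on that chromosome and assembly, and a gene without a symbol is called by its start.

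The cells came from the cortex of Sprague-Dawley rat pups of both sexes at postnatal days 0 to 2, pooled and grown as mixed glia, from which microglia and then precursors were shaken off. After 3 days of proliferation all groups were moved to differentiating medium. The CTL group received vehicle (DMSO), the GAL group the GPR17 agonist galinex at 10 nM, the CTK-2 group a mix of 3 cytokines (IFN-γ, TNF-α and IL-1β, 2 ng/mL of each), and the CTK2+GAL group both, with galinex added 6 h after the cytokines and RNA taken 24 h later. By the paper's methods, cells not given galinex received DMSO in its place, with cytokines too. Each group had 3 libraries. The comparisons asked what the cytokines changed, with or without galinex, and what galinex changed, with or without cytokines.

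The MHC holds the genes of antigen presentation among many that have no immune role. Class I heavy chains pair with β2-microglobulin and show peptides from inside the cell to CD8 T cells, after the TAP1-TAP2 transporter has moved those peptides into the endoplasmic reticulum. Class II α and β chains show peptides from endosomes to CD4 T cells and are usually restricted to professional antigen-presenting cells. IFN-γ is the classical inducer of both, acting on class II through the transactivator CIITA, and cells of the oligodendrocyte lineage carry little of either at rest. Between the class I and class II genes lies the class III stretch, with complement genes and housekeeping genes.

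Of the 78 genes, 16 could be given a symbol, because the count tables hold identifiers only and symbols were recovered for genes that the study had listed as changed by CTK-2. Having a symbol therefore already meant having changed in these libraries, and the 16 of 16 calls among named genes are not independent evidence. The symbols were RT1-CE3, RT1-N2, RT1-N3, RT1-S3, RT1-T24-4, RT1-T24-1 and RT1-A3 for class I, RT1-Da, RT1-Db1, RT1-Ba and RT1-Bb for class II, and Ier3, Cchcr1, Abhd16a, Clic1 and C2. RefSeq held a promoter, and so a position to compare, for 12 of these genes, and 2 of these symbols are uncertain. Ier3, Abhd16a, Clic1 and C2 had no promoter there and were not compared in this way. RefSeq places RT1-CE3 and RT1-A3 on the strand opposite to the rows that carried their values, and class I genes are near-identical copies. It also places their promoters far from those rows. On its assembly GRCr8 these promoters begin at 3525159 and 4849201, while the rows span 2623953 to 2692081 and 3350937 to 3380362. For RT1-Da the same positions are close, 4515165 for the promoter and 4512911 for the row. For RT1-T24-1, on the same strand in both, they are further apart. Its promoter begins at 2766054, within the row's span of 2718279 to 2776154. The 2 uncertain symbols may therefore belong to other genes.

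RefSeq (assembly GRCr8) held a promoter for 12 of the 16 named genes. The stretches below are the 250 bases before the start of each of the 4 class II genes and of 3 class I genes, shown because these 3 had the largest fitted changes among the class I genes, read 5′ to 3′ on the gene's strand. Their coordinates are on GRCr8 and are not the mRatBN7.2 positions used elsewhere. Capitals mark matches, on either strand, to TGATTGG (the core of the class II Y box, which holds an inverted CCAAT), to AGNNACNGATG (an X box core), to GAAANNGAAA (an interferon-stimulated response element, ISRE), to TTCNNNGAA (a gamma-activated site, GAS) or to the NF-κB consensus.
RT1-Da (chr20:4515165-4515414, + strand): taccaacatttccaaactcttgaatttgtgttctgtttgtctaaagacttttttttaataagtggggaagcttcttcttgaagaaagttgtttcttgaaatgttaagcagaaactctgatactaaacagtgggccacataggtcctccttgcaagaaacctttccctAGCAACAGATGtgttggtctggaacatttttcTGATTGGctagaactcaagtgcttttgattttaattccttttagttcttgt
RT1-Db1 (chr20:4560163-4560412, - strand): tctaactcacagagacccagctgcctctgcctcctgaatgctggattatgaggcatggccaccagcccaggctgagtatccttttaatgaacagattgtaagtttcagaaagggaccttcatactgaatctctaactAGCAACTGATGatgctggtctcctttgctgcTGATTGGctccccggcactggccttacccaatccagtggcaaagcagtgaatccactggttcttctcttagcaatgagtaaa
RT1-Ba (chr20:4576807-4577056, + strand): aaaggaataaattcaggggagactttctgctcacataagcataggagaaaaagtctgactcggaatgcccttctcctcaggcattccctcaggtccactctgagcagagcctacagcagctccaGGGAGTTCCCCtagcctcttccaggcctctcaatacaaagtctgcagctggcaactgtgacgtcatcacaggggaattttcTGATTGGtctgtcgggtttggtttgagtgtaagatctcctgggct
RT1-Bb (chr20:4604119-4604368, - strand): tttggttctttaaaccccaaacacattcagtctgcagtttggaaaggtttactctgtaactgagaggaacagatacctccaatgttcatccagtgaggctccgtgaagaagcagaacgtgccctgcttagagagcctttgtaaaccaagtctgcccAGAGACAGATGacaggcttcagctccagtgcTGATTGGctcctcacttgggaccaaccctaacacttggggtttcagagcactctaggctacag
RT1-S3 (chr20:2675278-2675527, + strand): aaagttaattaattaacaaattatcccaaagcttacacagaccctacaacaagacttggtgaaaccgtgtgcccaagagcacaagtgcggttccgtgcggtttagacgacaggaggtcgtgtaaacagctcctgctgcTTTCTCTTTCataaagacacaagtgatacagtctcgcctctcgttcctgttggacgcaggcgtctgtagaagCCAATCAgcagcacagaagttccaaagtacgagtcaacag
RT1-N3 (chr20:2666239-2666488, + strand): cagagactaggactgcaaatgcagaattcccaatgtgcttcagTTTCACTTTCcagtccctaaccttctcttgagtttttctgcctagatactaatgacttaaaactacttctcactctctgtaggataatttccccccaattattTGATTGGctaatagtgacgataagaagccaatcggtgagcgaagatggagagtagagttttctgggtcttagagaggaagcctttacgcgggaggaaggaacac
RT1-N2 (chr20:2646080-2646329, + strand): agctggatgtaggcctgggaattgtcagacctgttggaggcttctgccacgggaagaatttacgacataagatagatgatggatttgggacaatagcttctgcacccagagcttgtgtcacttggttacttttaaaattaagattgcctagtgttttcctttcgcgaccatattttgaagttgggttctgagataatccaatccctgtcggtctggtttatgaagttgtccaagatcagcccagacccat

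All 4 class II promoters held the Y box core, which 6.42% of 33469 rat promoters of the same length held. The X box core stood further upstream in 3 of the 4 (RT1-Da, RT1-Db1 and RT1-Bb), against 0.753% of all promoters. Cchcr1 held it too. In RT1-Da the X box match ran from 83 to 73 bases before the start and the Y box match from 51 to 45 bases before it. RT1-Ba lacked these X box letters but held NF-κB consensus matches, which 6.33% of all promoters held. Of the 7 class I promoters found in RefSeq, 2 held the ISRE letters (RT1-N3 and RT1-S3), against 3.41% of all promoters, and 4 held the Y box letters. Those 7 include the RefSeq promoters of RT1-CE3 and RT1-A3, whose rows are uncertain. The GAS letters were found in 0 of the 12 promoters, against 7.67% of all. RT1-N2 held none of the 5 patterns in this window. These matches are letters in a window, not measured binding sites.

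Depth and the identity of the cells touch the values below. Total counts ran from 2600797 (a GAL library) to 8978185 (a CTK2+GAL library). Levels are given as CPM, counts scaled to library size. The labelled cell type was checked on markers of the oligodendrocyte lineage. Only 5 of 11 listed had a symbol, and these were genes the study had listed as changed. The precursor marker Pdgfra had 2570, 1951 and 2566 counts in CTL and 3512, 3649 and 3813 in CTK-2, and the myelin gene Mag had 1047, 995 and 941 in CTL and 387, 486 and 398 in CTK-2. By edgeR, Pdgfra and the precursor marker Cspg4 were called higher with cytokines, and Mag and the myelin gene Mog lower, in both cytokine comparisons. The third CTL library and the third GAL library stood apart from their groups. Among the 29 cytokine-responsive genes of the region, the third CTL library was the highest CTL library for 26 and the third GAL library the highest GAL library for 26, where among all 1538 genes called higher in CTK-2 the third CTL library was highest for 60.5%. For the responsive genes of the region described one by one, the CTK-2 versus CTL difference is therefore also given without the third CTL library, an alternative added after the data were seen. It is given as a ratio of summed levels where the third library changed it most.

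With cytokines 29 of the 78 genes were called higher and 0 lower. Between CTK-2 and CTL, the quasi-likelihood test of edgeR (adjusted p of at most 0.05 and a change of at least 0.59 on the log2 scale) called 29 genes higher (37.2%), where 11.5% of all 13348 genes tested were called higher. None was called lower, where 5.79% of all genes were, and DESeq2 also called 0 lower. At an unadjusted edgeR p under 0.05, 13 of the 78 were lower, and 3070 of all 13348 genes. In CTK2+GAL versus GAL, on libraries that the first comparison did not use, 29 genes were called higher (11.7% of all genes) and 0 lower (5.74% of all genes). The 29 genes were the same. DESeq2 called 0 lower. At an unadjusted edgeR p under 0.05, 12 of the 78 were lower, and 3084 of all 13348 genes. Over the 78 genes the log2 fold change had a median of 0.23 in both comparisons, against 0.00069 and 0.0062 over all genes tested. The mean count of at least 5 was taken over all 12 libraries, cytokine-treated ones included. Among the genes called higher, the class II genes and the row listed as RT1-CE3 did not reach that mean in CTL and GAL. The same held for the genes at 2606621, 3264172, 3481751 and 4197366. They passed the filter only through cytokine libraries, so their calls were largely fixed in advance. They are part of the 37.2%. All 13348 genes tested passed the same filter.

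For 36 of the 78 genes every CTK-2 library was above every CTL library, a separation that 25.2% of all genes showed, and for 13 every CTK-2 library was below (23.8% of all genes). In CTK2+GAL versus GAL these numbers were 36 (25.5% of all genes) and 12 (24% of all genes). The 29 genes called higher were separated in this way in both comparisons, with the third CTL and GAL libraries included. Without the third CTL and GAL libraries the same test called 29 genes higher in each comparison. DESeq2 called 17 and 18 of the 29. It gave no p for 10 of them, which it does where a library lies far from the fit, and the other 2 and 1 missed its threshold. The 10 were RT1-N2, RT1-S3, the row listed as RT1-A3, C2 and the unnamed genes at 3257123, 3297196, 3310825, 3403777, 3537809 and 3555782. For these the calls rest on edgeR alone. The share that DESeq2 called over all genes is not given here.

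**Figure D1:**
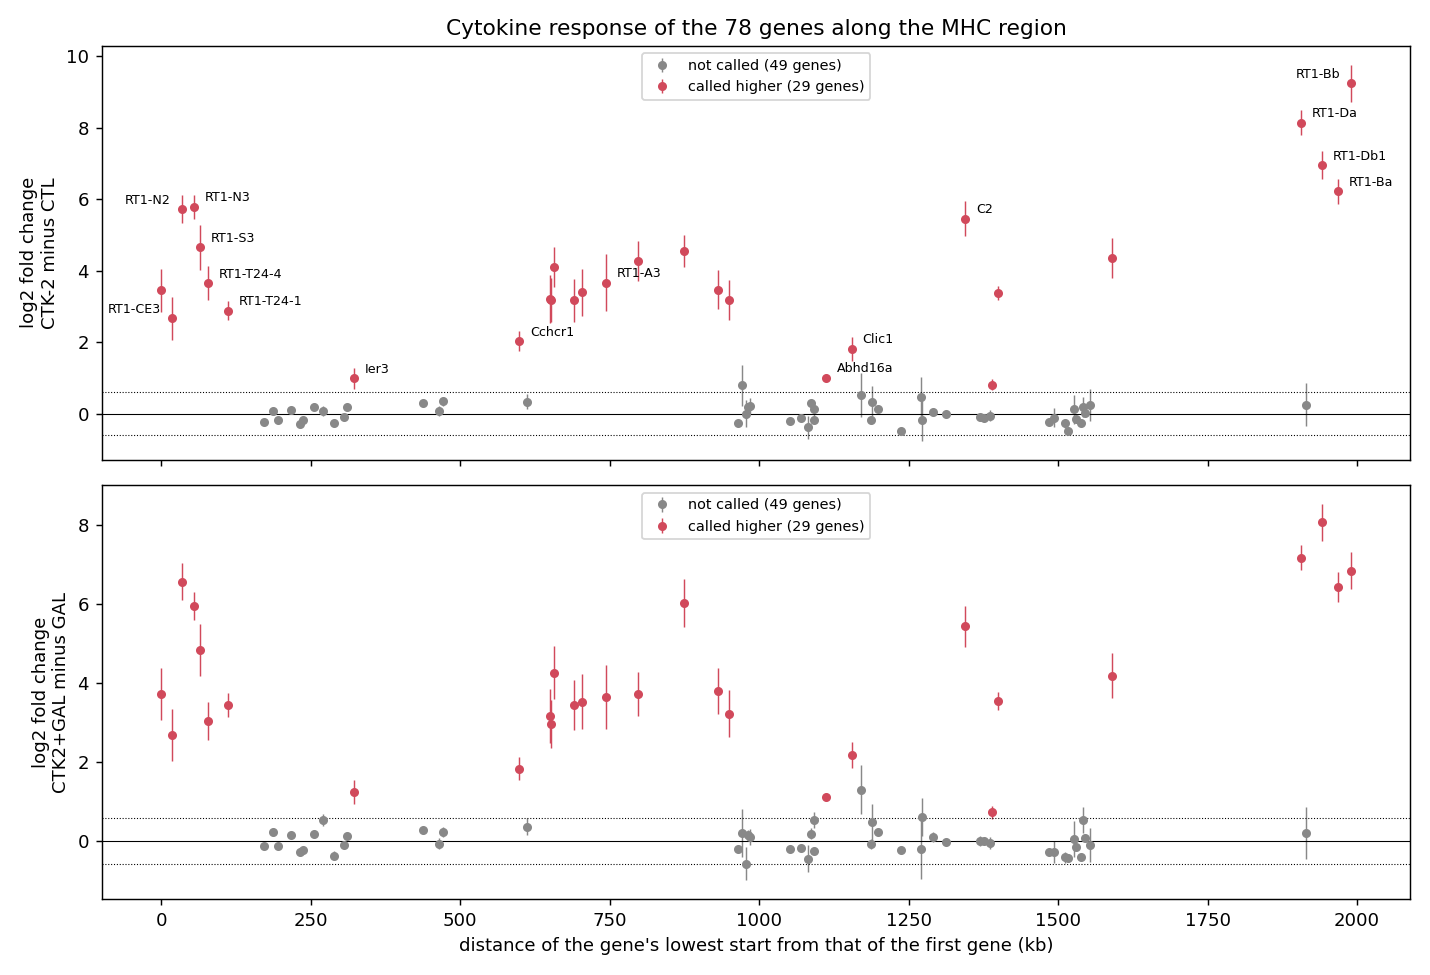
Log2 fold change (y axis) of each of the 78 genes against the distance of its start from that of the first gene in kb (x axis), for CTK-2 minus CTL above and CTK2+GAL minus GAL below. Points are edgeR estimates, bars their standard errors, dotted lines the limits of 0.59 in either direction; the 29 genes called higher stand in blocks at both ends and in the middle, and the 49 others lie mostly near 0.

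The responsive genes were not spread evenly along the chromosome. In order of position they formed 9 blocks separated by 8 blocks of genes that were not called. The first block held 7 genes, from 2606621 to RT1-T24-1, over 170 kb and all on the plus strand. The longest block held 10 genes over 302 kb, from 3257123 to the end of its last gene at 3559486, of which 9 lay on the minus strand. The class II genes closed the region, from RT1-Da at 4512911 to the end of RT1-Bb at 4607597.

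The first block held the non-classical class I genes RT1-N2, RT1-N3, RT1-S3, RT1-T24-4 and RT1-T24-1, with the row listed as RT1-CE3 and the unnamed gene at 2606621. RT1-S3 (2670709 to 2675411) had 1, 0 and 183 counts in CTL, 1, 1 and 138 in GAL, 1239, 1489 and 1471 in CTK-2 and 1390, 1528 and 2471 in CTK2+GAL. The first 2 libraries of CTL and GAL were almost empty, the third ones intermediate and all cytokine libraries high. The mean level was 9.95 ± 17.1 CPM in CTL and 267 ± 7.24 in CTK-2 (SD, n = 3). The edgeR log2 fold change was 4.65 (SE 0.62, adjusted p = 7.85e-06). Without the third libraries the ratio of its summed CTK-2 to CTL levels was 2904 (exact 95% counting interval 521 to 114714), since a single count remained in the controls.

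RT1-N2 and RT1-N3, a neighbouring pair of non-classical class I genes, had the largest fitted changes of that block with all libraries. RT1-N2 (2641202) had 0, 0 and 48 counts in CTL, 0, 0 and 21 in GAL, 760, 790 and 792 in CTK-2 and 723, 771 and 1259 in CTK2+GAL. Its log2 fold change was 5.72 (SE 0.39) in CTK-2 versus CTL and 6.55 (SE 0.47) in CTK2+GAL versus GAL, and the lower bound of its rise without the third libraries was 540-fold in CTK-2 over CTL and 396-fold in CTK2+GAL over GAL, against a floor of 3 counts over the control group. RT1-N3 (2661584) had 2, 0 and 20 counts in CTL and 357, 435 and 342 in CTK-2, a log2 fold change of 5.78 (SE 0.34). The ratio of its summed levels was 55.9 (counting interval 36.7 to 89.6) with all libraries and 392 (interval 108 to 3242) without the third CTL library. In RT1-S3, RT1-N2 and RT1-N3 alike, no cytokine library overlapped with the others.

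The remaining genes of that block moved less. RT1-T24-1 (2718279), which was present at rest with 11, 9 and 24 counts in CTL, reached 84, 113 and 104 in CTK-2, a log2 fold change of 2.88 (SE 0.26, adjusted p = 6.89e-08) that was 3.36 without the third libraries. RT1-T24-4 (2684515) went from 2, 2 and 20 counts to 71, 122 and 89, a log2 fold change of 3.65 (SE 0.47). Its ratio of summed levels moved from 12.7 (interval 8.39 to 20.2) to 48.8 (interval 18.8 to 180) without the third CTL library. The row listed as RT1-CE3 spans 2623953 to 2692081, across RT1-N2, RT1-N3 and RT1-S3, and held few counts (1, 0 and 10 in CTL, 17, 21 and 28 in CTK-2). Its ratio was 6.51 (interval 3.41 to 13.7), and 45.6 (interval 7.91 to 1830) without the third CTL library. Of its exon bases 9.09% were shared with other genes on its strand, where read pairs were not counted.

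That longest block contained the row listed as RT1-A3 and 9 unnamed genes. In RefSeq the class I genes of the RT1-CE series follow Cchcr1 and Pou5f1 in this stretch, but which row is which of them was not established. The row listed as RT1-A3 (3350937 to 3380362) had 8, 11 and 484 counts in CTL, 2, 8 and 428 in GAL, 1710, 1928 and 2047 in CTK-2 and 1821, 1975 and 3375 in CTK2+GAL. Its log2 fold change was 3.67 (SE 0.79, adjusted p = 0.0011) with all libraries. Without the third CTL library the ratio of its summed levels was 207 (counting interval 132 to 344).

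The log2 fold changes of the unnamed genes of that block in CTK-2 versus CTL lay between 3.17 and 4.55 with all libraries. The gene at 3310825 (ENSRNOG00000069480) had 8, 8 and 323 counts in CTL and 947, 1177 and 1086 in CTK-2, a ratio of 10.3 (interval 9.18 to 11.5) that was 139 (interval 85.3 to 243) without the third CTL library. The gene at 3403777 (ENSRNOG00000059770) had 0, 0 and 72 counts in CTL, 0, 1 and 80 in GAL, 412, 442 and 413 in CTK-2 and 373, 406 and 687 in CTK2+GAL. Its log2 fold change was 4.26 (SE 0.56, adjusted p = 6.64e-06), and the lower bound without the third CTL library was 292-fold.

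At 3481751 stood the gene of that block with the weakest signal in the third control libraries. It had 0, 1 and 7 counts in CTL, 0, 0 and 2 in GAL, 63, 56 and 61 in CTK-2 and 54, 43 and 113 in CTK2+GAL. In CTK-2 versus CTL the log2 fold change was 4.55 (SE 0.46), and the ratio was 24.4 (interval 12.1 to 57.4) with all libraries and 124 (interval 22.1 to 4943) without the third CTL library. In CTK2+GAL versus GAL the ratio was 76.2 (interval 20.8 to 633), with a lower bound of 30.2-fold without the third GAL library.

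**Figure D2:**
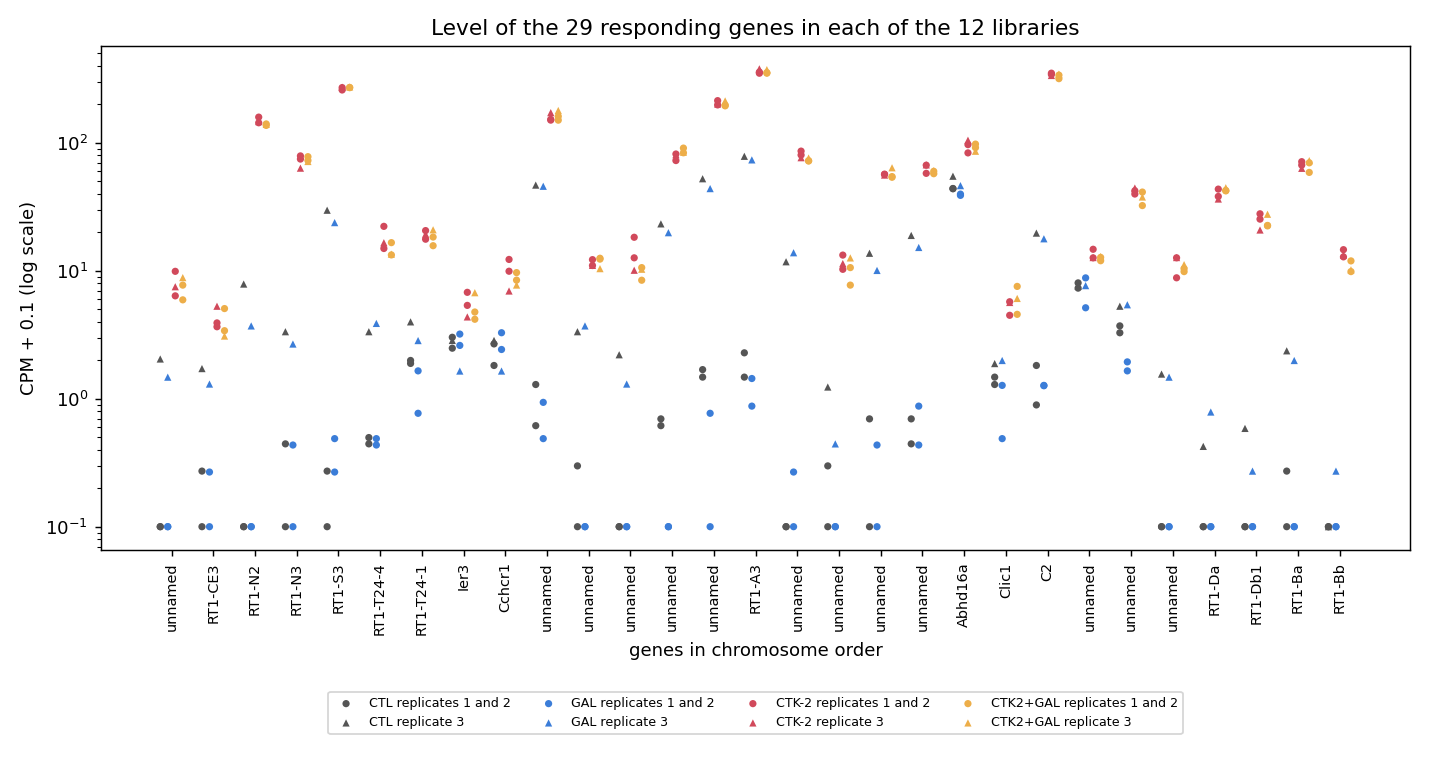
Level of the 29 genes called higher with cytokines in each of the 12 libraries, as CPM + 0.1 on a log axis (y axis), in chromosome order (x axis); circles are replicates 1 and 2, triangles replicate 3, colours the groups. The CTK-2 and CTK2+GAL libraries of every gene lie above its CTL and GAL libraries, and the CTL and GAL triangles lie between for most class I genes but low for the class II genes.

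With all libraries, the 4 class II genes had the largest fitted log2 fold changes of the region in CTK-2 versus CTL. Without the third CTL and GAL libraries this order did not hold. RT1-N2 (12.7), the gene at 3403777 (11.8) and RT1-S3 (11.2) then stood above RT1-Da (10.8), RT1-Db1 (10.1), RT1-Bb (9.21) and RT1-Ba (9.19). For these genes the remaining CTL libraries held at most 1 count, so the order among them is not settled. RT1-Da, the α chain of the rat DR-like molecule, had 0, 0 and 2 counts in CTL, 0, 0 and 4 in GAL, 182, 239 and 196 in CTK-2 and 218, 237 and 402 in CTK2+GAL. RT1-Db1, a β chain of the same molecule, had 0, 0 and 3 counts in CTL, 0, 0 and 1 in GAL, 133, 139 and 112 in CTK-2 and 115, 127 and 249 in CTK2+GAL. Both were all but undetected without cytokines, in the third libraries too.

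RT1-Ba and RT1-Bb, the α and β chains of the DQ-like molecule, gave the same picture at different levels. RT1-Ba had 1, 0 and 14 counts in CTL, 0, 0 and 11 in GAL, 320, 392 and 341 in CTK-2 and 302, 393 and 655 in CTK2+GAL. RT1-Bb had 0 counts in each CTL library, 0, 0 and 1 in GAL, 61, 80 and 71 in CTK-2 and 61, 55 and 91 in CTK2+GAL. The cytokine groups were far from the others for both.

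Because the controls held so few counts, the class II differences are given as ratios of summed levels. RT1-Da was 335-fold higher in CTK-2 than in CTL (exact 95% counting interval 92.3 to 2770) and RT1-Db1 139-fold (interval 47.2 to 676), with lower bounds of 142-fold and 88.5-fold without the third CTL library. RT1-Ba was 76.2-fold higher (interval 46.0 to 137), and 728-fold (interval 130 to 28788) without the third CTL library. RT1-Bb was at least 76.7-fold higher, and at least 48.9-fold without that library, since fewer libraries raise the floor. The edgeR adjusted p of the 4 genes lay between 3.84e-12 and 6.63e-10 in CTK-2 versus CTL and between 5.88e-12 and 5.58e-09 in CTK2+GAL versus GAL. The intervals and floors cover counting error only.

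Genes outside the region that work with class I and class II were taken from a short list. Symbols were found for 5 of the 9 listed: Ciita, the class II transactivator, Cd74, the invariant chain, Rfx5, a factor that binds the X box, B2m, the light chain of class I, and Irf1, an interferon-induced transcription factor. All 5 were called higher by edgeR in both cytokine comparisons. Ciita had 0, 0 and 6 counts in CTL and 131, 180 and 136 in CTK-2, a log2 fold change of 6.25 (SE 0.38). Rfx5 was present without cytokines and rose by 0.66 on the log2 scale (SE 0.09). These symbols too exist only for genes the study had listed as changed.

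The markers of other cells that had a symbol were also higher with cytokines. A symbol existed only for genes the study had listed as changed by CTK-2, so this result was largely fixed in advance. The markers without a symbol were not examined. Of 12 microglia and macrophage markers 3 had a symbol (Csf1r, P2ry12 and C1qc), none of them at 0 in any library. Their summed level was 2.06 to 8.76 CPM in CTL, 3.10 to 9.45 in GAL, 16.3 to 21.1 in CTK-2 and 17.5 to 18.5 in CTK2+GAL, and the highest CTL and GAL values were those of the third libraries. Csf1r, the receptor microglia need to survive, was not called in CTK2+GAL versus GAL. The endothelial marker Kdr (1 of 4 with a symbol) had 0.994 to 1.30 CPM in CTL and 3.97 to 7.78 in CTK-2. The fibroblast marker Col1a2 (1 of 4) had 0.688 to 1.59 and 6.36 to 7.97 CPM, and the neuronal Tubb3 (1 of 4) had 81.7 to 89.0 and 156 to 189 CPM. Of 7 markers of T cells, B cells and dendritic cells only Cd74 had a symbol, and of 6 astrocyte markers 0. The part of such other cells in the class II and class I results was not tested. The paper reports immunostaining of a precursor preparation used for its experiments. It found few cells positive for GFAP (astrocytes) and none detectably positive for Iba1 (microglia). Whether these libraries came from that preparation is not stated. In bulk RNA, a change in the number of cells of a type and a change in RNA per cell cannot be told apart.

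The peptide transporter genes lie just past the end limit and are not among the 78. Tap2 ends at 4650407, 407 bases beyond the limit, and Tap1 lies from 4656263 to 4666901. Tap2 had 14, 24 and 201 counts in CTL, 9, 22 and 164 in GAL, 975, 1063 and 1105 in CTK-2 and 964, 1034 and 1679 in CTK2+GAL. Tap1 had 41, 41 and 1278 counts in CTL, 15, 37 and 1058 in GAL, 4019, 4538 and 4419 in CTK-2 and 4135, 4547 and 7589 in CTK2+GAL. Both were low in the first 2 libraries of CTL and GAL and higher in the third ones. The unnamed genes at 4652159 and 4666046, beside Tap1, had 2, 1 and 508 and 38, 38 and 1087 counts in CTL, and 1456, 1829 and 1767 and 1915, 2336 and 2004 in CTK-2.

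In the class III stretch the complement gene C2, whose product forms part of the classical C3 convertase, had the largest fitted change with all libraries. It had 10, 4 and 121 counts in CTL, 3, 7 and 103 in GAL, 1677, 1884 and 1816 in CTK-2 and 1741, 1790 and 3114 in CTK2+GAL. The mean level was 7.38 ± 10.6 CPM in CTL and 343 ± 7.17 in CTK-2 (SD, n = 3). The edgeR log2 fold change was 5.45 (SE 0.49, adjusted p = 5.38e-08), and the ratio without the third CTL library was 266 (interval 158 to 486). RefSeq has the complement gene Cfb next to C2, and whether the row also spans it was not established. The gene 12 bases further on, at 3976518 on the other strand, had 131, 125 and 128 counts in CTL and 92, 118 and 121 in CTK-2, and was not called.

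A pair of unnamed genes with the same exon length, 5356 bases, was also called. The gene at 4005731 had 21, 16 and 32 counts in CTL, 4, 11 and 31 in GAL, 190, 232 and 239 in CTK-2 and 166, 232 and 340 in CTK2+GAL. Its log2 fold change was 3.37 (SE 0.21, adjusted p = 3.83e-10), and 3.62 without the third libraries. The gene at 4197366 had 0, 0 and 9 counts in CTL, 0, 0 and 8 in GAL, 60, 48 and 68 in CTK-2 and 53, 55 and 100 in CTK2+GAL, and its log2 fold change was 4.36 (SE 0.55, adjusted p = 4.11e-06). The ratio of its summed levels was 21.2 (interval 10.9 to 47.2), and without the third CTL library, where the controls held 0 counts, the lower bound was 40.6-fold. In RefSeq the complement genes C4a and C4b, copies of each other, stand in this part of the region, but the match to these rows was not established, and pairs that map to more than 1 place were not counted.

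The other 5 responsive genes belong to none of these groups. Abhd16a (3719091), a lipid hydrolase, was the most abundant of the 29 without cytokines, with 254, 221 and 338 counts in CTL, 100, 237 and 269 in GAL, 399, 533 and 566 in CTK-2 and 503, 517 and 776 in CTK2+GAL. Its mean level was 47.5 ± 6.35 CPM in CTL and 95.1 ± 10.8 in CTK-2 (SD, n = 3; edgeR adjusted p = 2.02e-07). Without the third libraries the log2 fold change was 1.12. Cchcr1 (3205676), which encodes a coiled-coil protein, had 10, 13 and 17 counts in CTL and 47, 67 and 37 in CTK-2, a log2 fold change of 2.02 (SE 0.28) that was 2.17 without the third libraries.

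Ier3 (2928378), an immediate early gene that NF-κB can induce, had 17, 12 and 17 counts in CTL, 8, 15 and 9 in GAL, 32, 29 and 23 in CTK-2 and 24, 23 and 60 in CTK2+GAL. Its log2 fold change was 0.99 (SE 0.29, adjusted p = 0.0109). The ratio of its summed levels was 1.98 with all libraries and 2.00 (interval 1.30 to 3.17) without the third CTL library. Without the first CTK-2 library Ier3 was no longer called (0.81, adjusted p = 0.0594). In the fit on libraries numbered 1 and 2 alone it was not called in CTK2+GAL versus GAL (0.68, adjusted p = 0.176). Clic1 (3761461), which encodes a chloride channel protein, held 8, 6 and 11 counts in CTL and 21, 31 and 30 in CTK-2, a log2 fold change of 1.81 (SE 0.33) that was 2.00 without the third libraries. The unnamed gene at 3995587 rose by 0.81 on the log2 scale (SE 0.16, adjusted p = 0.000586) from 42, 40 and 46 counts to 70, 69 and 68, and by 0.81 without the third libraries.

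The 49 genes that were not called lay between and beside the responsive ones. Their log2 fold changes ran from -0.48 to 0.79 in CTK-2 versus CTL, with a median of 0.00031, and from -0.57 to 1.30 in CTK2+GAL versus GAL, with a median of -0.04. Some passed the adjusted p alone with a change below 0.59. In CTK-2 versus CTL 2 were higher and 10 lower, where of all 13348 genes tested 1104 were higher and 1798 lower in this way. In CTK2+GAL versus GAL 4 were higher and 12 lower, where of all genes 1137 were higher and 1829 lower. The largest such decrease in CTK-2 was at 4122463, which fell by 0.48 on the log2 scale (SE 0.10, adjusted p = 0.000717), from 233, 253 and 245 counts in CTL to 140, 170 and 175 in CTK-2. The most abundant gene of the region, at 2912778, had 4617, 4434 and 4590 counts in CTL and 3615, 4304 and 3940 in CTK-2, a log2 fold change of -0.09.

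At some places called genes and genes that were not called stood close together. The order held 16 borders between a called gene and one that was not, and at 4 of them the genes stood less than 1000 bases apart. RT1-T24-1 ends 2830 bases before the gene at 2778985, which had 406, 382 and 400 counts in CTL and 277, 342 and 308 in CTK-2 (log2 fold change -0.25). The 11 genes in a row from there to 2917137 had log2 fold changes between -0.30 and 0.19, and Ier3 followed 399 bases later. The gene at 3572056, 12569 bases after the longest block, had 2949, 2822 and 2940 counts in CTL and 2114, 2405 and 2257 in CTK-2, a log2 fold change of -0.25. Within the class II genes, the gene at 4520713, which lies 2257 bases past RT1-Da on the other strand, held 7, 6 and 6 counts in CTL and 5, 15 and 1 in CTK-2 and was not called.

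Cchcr1 and the gene at 3218693, on opposite strands, are 384 bases apart, and the gene at 3218693 had 31, 22 and 42 counts in CTL and 30, 45 and 35 in CTK-2, a log2 fold change of 0.33 that was not called. The gene at 3993327, which ends 92 bases before 3995587, had 57, 64 and 67 counts in CTL and 50, 55 and 61 in CTK-2. These neighbours did not separate between the groups as the responsive genes did.

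Overlapping exons limited some of these counts. Read pairs that fell on more than 1 gene of a strand were left out, and 12 of the 78 genes shared exon bases with another gene on their strand, 9 of them called. The genes at 3257123 and 3264172 shared 3360 bases, 52.8% and 31.8% of their exons. The gene at 3257123 still held 720, 840 and 930 counts in CTK-2, against 87, 69 and 54 for the gene at 3264172. Clic1 shared 40.1% of its exon bases with a same-strand gene outside the 78, and the row listed as RT1-A3 shared 537 bases with the gene at 3310825. Levels per kb of these genes are divided by all exon bases and are too low for that reason.

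Opposite strands share exon bases at the start of the longest block. The gene at 3258430 lies on the plus strand and shares 2497 exon bases with the minus-strand gene at 3257123. It had 0, 1 and 20 counts in CTL and 58, 60 and 59 in CTK-2, where its partner had 3, 6 and 288 and 720, 840 and 930. Without the third CTL library their ratios were 122 (interval 21.7 to 4861) and 191 (interval 101 to 419). The third CTL library stood at 28.6% of the CTK-2 mean for one and 29.5% for the other. Whether plus-strand counts there come from reads of the other strand was not tested.

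Per kb of exon the order of the genes changed with the cytokines. In CTL the gene at 2912778 was highest, with a mean of 335 CPM per kb, and the highest class I symbol was the row listed as RT1-A3 at rank 41 of 78 with 5.01. In CTK-2 RT1-S3 had 99.7 CPM per kb and rank 4, above 96.3% of all genes tested, RT1-N2 had 87.2 and rank 5, and the gene at 3403777 had 81.1 and rank 7. C2 had 65.6 CPM per kb in CTK-2. Among class II genes RT1-Ba reached 48.6 CPM per kb, RT1-Da 10.0, RT1-Db1 4.73 and RT1-Bb 2.45. Within each pair the α chain row had the higher level.

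**Figure D3:**
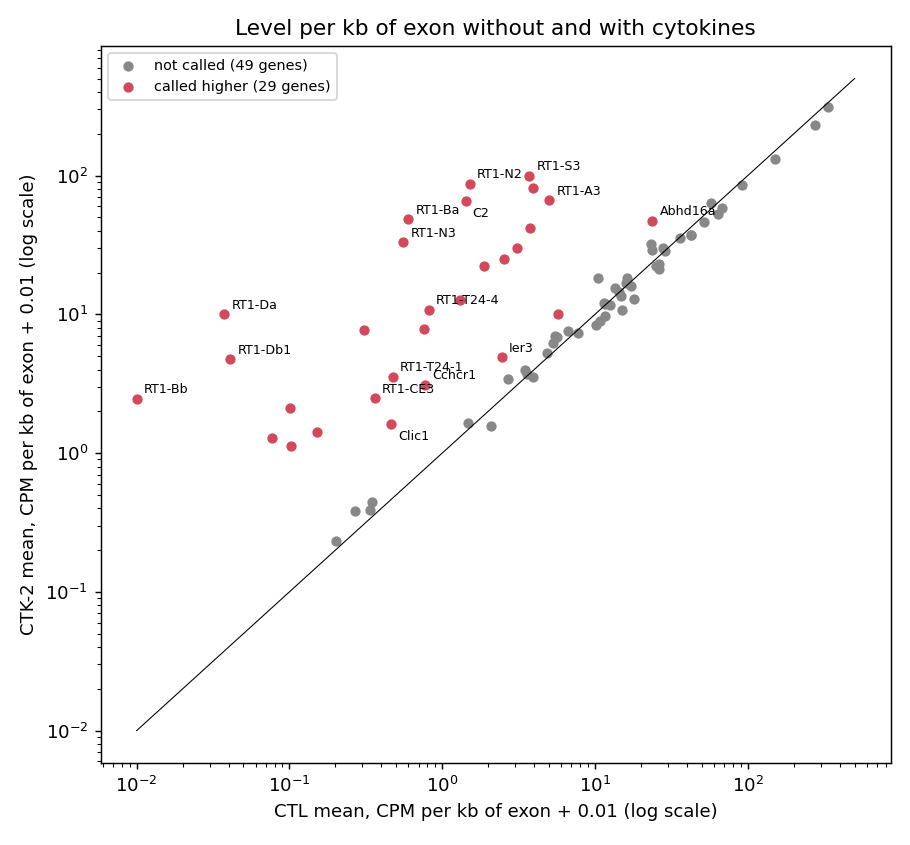
Mean level of each of the 78 genes in CTK-2 (y axis) against CTL (x axis), in CPM per kb of exon + 0.01 on log axes, with the line of equal levels. The 49 genes not called lie along the line and the 29 called genes above it; RT1-Bb, with no count in CTL, sits at the left edge.

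Summed over the 29 responsive genes, the level was 181 ± 191 CPM in CTL, 157 ± 169 in GAL, 2250 ± 12.7 in CTK-2 and 2211 ± 62.5 in CTK2+GAL (SD, n = 3). The spread in CTL and GAL came from the third libraries, at 402 and 352 CPM. The 49 other genes summed to 5123 ± 246, 4962 ± 191, 4731 ± 59.8 and 4582 ± 53.2 CPM. The 4 class II genes summed to 1.08 ± 1.73 CPM in CTL and 144 ± 10.6 in CTK-2.

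How far the third CTL and GAL libraries were raised differed between genes. As a percentage of the CTK-2 mean, the third CTL library stood at a median of 20.3% over the 29 genes, where the mean of the other CTL libraries stood at a median of 0.539%. For the 10 genes of the longest block the median was 24.9% (range 9.83% to 29.6%). RT1-N2 and RT1-N3 stood at 5.20% and 4.48%, C2 at 5.72%, RT1-S3 at 11.1% and the gene at 4005731 at 12.3%. The class II genes were lowest, from 0% for RT1-Bb to 3.38% for RT1-Ba. The third GAL library, as a percentage of the CTK2+GAL mean, gave a median of 21.1% in the longest block and 1.61% for class II. Over all 1538 genes called higher in CTK-2 the medians of the third CTL library and of the other CTL libraries were 45.9% and 40.1%.

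**Figure D4:**
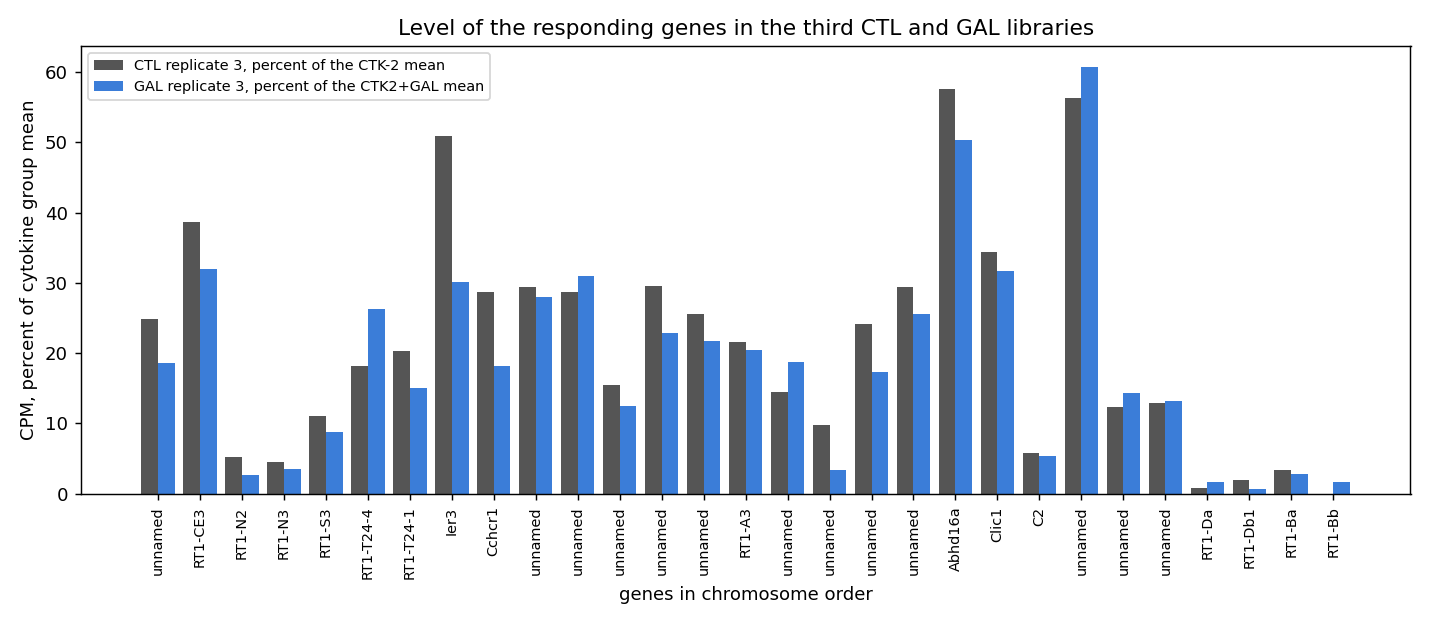
Level of each of the 29 responsive genes in the third CTL library, as a percentage of the CTK-2 mean, and in the third GAL library, as a percentage of the CTK2+GAL mean (y axis, bars from 0), in chromosome order (x axis). The CTL bars of the 10 genes of the longest block run from 9.83% to 29.6%, while those of the 4 class II genes end at or below 3.38%.

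No difference with galinex was called by edgeR for any of the 78 genes. In CTK2+GAL versus CTK-2, 0 genes were called, as among all genes tested (0%). At an unadjusted edgeR p under 0.05 stood 3 of the 78, and 545 of all 13348 genes. DESeq2 had 0 at either level, with no p for 10 of the 78. RT1-Bb was 1 of those 3, with a log2 fold change of -0.36. Over the 29 responsive genes the log2 fold changes lay between -0.47 (the gene at 3264172) and 0.20 (Clic1), with standard errors of 0.09 to 0.65. For RT1-S3 the value was 0.02, for C2 -0.04 and for RT1-Ba 0.01. In GAL versus CTL, 0 genes were called (0% of all genes) and DESeq2 called 0. At an unadjusted edgeR p under 0.05 stood 1 of the 78, and 574 of all 13348 genes. Over the 29 responsive genes these log2 fold changes lay between -1.61 and 2.04. Their standard errors of 0.11 to 1.46 leave changes of several fold unresolved for many of them. The difference between the 2 cytokine comparisons, tested as the interaction of cytokines and galinex, was called for 0 genes (0% of all genes), and for 0 by DESeq2. At an unadjusted edgeR p under 0.05 stood 1 of the 78, and 376 of all 13348 genes. Its standard errors over the 29 genes ran from 0.14 to 1.59.

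A few genes lay close to the limits of the choice. The least abundant genes inside were those at 3776942 and 3578766, with mean counts of 5.33 and 5.42, and the most abundant outside those at 3646777 and 4026463, with 4.33 and 3.33. The gene at 3646777 had 1, 0 and 7 counts in CTL and 9, 6 and 4 in CTK-2. The last gene before the start limit, at 2496605, had a mean count of 0.75. Of 36 genes within the position limits that had counts but not the mean of 5, the test without a filter called 3 higher in CTK-2 and 0 lower. The share over all genes in that fit is not given here. With the filter, 11.5% of all genes were called higher, so the 3 are not read as a trait of the region.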

How the data were processed

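RNA-seq was analysed in 12 libraries, 3 for each of CTL, GAL, CTK-2 and CTK2+GAL. Per the file headers, the authors deposited counts of read pairs per gene, made with featureCounts 2.0.0 on exons of Ensembl release 112 (mRatBN7.2), reversely stranded, with both ends mapped and without marked duplicates or chimeric pairs. As this program is set by default, pairs that map to several places or overlap several genes were not counted, which lowers the counts of near-identical class I genes. The labels name FastQC and STAR before it and DESeq2 after it. Their versions are not given in the sources used here.

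The 13348 genes averaging 5 or more counts were kept, scaled by TMM and fitted in edgeR 4.0.16 with 1 mean per group over all 12 libraries. Quasi-likelihood tests were adjusted by Benjamini-Hochberg over all 13348 genes, and a gene was called at an adjusted p of at most 0.05 with a log2 fold change of 0.59 or more in size. Standard errors are the absolute log2 fold change over the root of F. CPM use the TMM-scaled library sizes. The code was tested on simulated data. Symbols came from an entry of the study's list of changed genes whose mean level and fold change matched a single gene of the count tables (1769 of 1786 entries). That list also holds the authors' fold changes and p-values, which were used for no other purpose. Named are class I, class II and peptide-processing genes, other called genes, their nearest neighbours, abundant genes, overlapping genes and genes at the limits. The members and lists were chosen with earlier results of these data known.

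The labels do not say whether replicates are separate cultures, so p-values measure the spread between libraries. No 2 libraries of a group agreed within sampling noise (chi-square per degree of freedom 1.56 to 6.64). Alternatives were DESeq2 1.42.0, other scalings and filters, a replicate block, only the groups compared, the adjusted p alone and each library left out. Total counts of 2600797 to 8978185 limit genes with few counts.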

Additional observations from a re-analysis of the deposited data

How the results depend on the processing

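The 29 genes called in each cytokine comparison numbered 29 with DESeq2 size factors, library totals, no filter, edgeR's own filter and only the groups compared. DESeq2 called 17 in CTK-2 versus CTL and 18 in CTK2+GAL versus GAL, with no adjusted p for 10 genes and 2 and 1 further calls lost (the genes at 3258430 and 2606621, and 3258430). By adjusted p alone, 41 and 45 genes passed, the added ones being small changes. Such small changes were common among all 13348 genes tested. In CTK-2 versus CTL they added 1104 higher and 1798 lower genes to the 1538 and 773 called. In CTK2+GAL versus GAL they added 1137 and 1829 to the 1558 and 766 called. Leaving out 1 library gave 28 to 29 and 29 to 30 calls, and the call lost was Ier3 without the first CTK-2 library. Without the third CTL and GAL libraries, chosen after seeing the data, 29 and 29 were called, and on libraries numbered 1 and 2 alone 29 and 28. No gene changed direction in 1218 recomputed values for these 29 genes, and 5 values lost the call. The 3 comparisons of galinex gave 0 calls under every alternative run.

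With the replicate number as a block, 29 and 29 genes were called and no call changed. The numbers do not pair the libraries of all groups, since same-numbered libraries correlated in their deviations by -0.0112 to 0.605 and 3 of 18 pairs exceeded 0.1, all 3 between CTL and GAL. Scaling by library totals moved the median of all genes by at most 0.041. Ratios of genes with 3 or fewer control counts rest on those counts.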
